A study of Mus musculus with 16 samples.

Results

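The genes described here encode Bambi and other components of signalling by the TGF-β family, together with a small group of hedgehog genes, in mouse colon. They were chosen by gene name, as all names of the family (Bmp, Gdf, Inhb, Tgfb, Acvr, Smad, Ltbp, Grem, Chrd, Fst, Id and related names, with Bmp1 left out, and the hedgehog genes Hhip, Gli and Ptch) that occur in the deposited gene tables. This gave 32 of the 5171 distinct genes in the tables. A gene is in a table only if it passed the threshold of the authors' test in at least 1 comparison, so family members that passed none were not analysed here. mRNA was sequenced from whole colon tissue of male C57BL/6 mice in 4 groups: 3 WT (wild type) control, 3 Smarcad1-KO control, 5 WT colitis and 5 Smarcad1-KO colitis libraries. The KO mice carried a floxed Smarcad1 allele from a single targeted line and the Vil-cre transgene, in which the villin promoter drives Cre recombinase in the intestinal epithelium, so that the other cells of the colon keep Smarcad1, a chromatin remodelling ATPase. The colitis groups drank water with 1% dextran sodium sulphate (DSS), which injures the colon lining, for 15 days. All mice of all 4 groups had received an enriched microbiota by bedding transfer and co-ventilation, beginning 2 weeks before DSS.

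The values are the authors' means of each group in log2 RPM (RPM, reads per M reads of the library), and a change is the difference of a pair of such means. Levels of single libraries were not used here, so no value below has an SD and no difference was tested again. A gene is called listed, and is said to have risen or fallen, where it stands in the deposited table of that comparison, which holds genes with an adjusted p-value under 0.05 in DESeq2. The geometric mean depth per group was 8.005 M to 10.1 M reads, and a mean of 3 reads per library corresponded to −1.75 to −1.42 log2 RPM. All group means of 31 of the 32 genes lay above 10 reads per library, and Gdf3 was the exception. Smarcad1 itself had a mean of 5.77 log2 RPM in control and 5.68 in colitis in WT, against 4.59 and 4.55 in KO. Car1 and Slc26a3, which mark absorptive cells of the colon surface, were high in WT control, at 11.74 and 11.07 log2 RPM, and markers of muscle, fibroblasts, leukocytes and neurons were detected, as in whole colon. In such tissue, fewer cells of a type and less RNA per cell cannot be told apart.

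Ligands of the TGF-β family (TGF-βs, activins and BMPs) bind pairs of type I and type II receptor kinases, which phosphorylate receptor-regulated Smads. These join Smad4 and act in the nucleus, where they also induce the inhibitory Smad6 and Smad7 as feedback. Secreted antagonists such as gremlin and chordin bind BMPs outside the cell, and Bambi is a receptor-like membrane protein without a kinase domain that blocks signalling at the surface. In the colon, BMP activity is high towards the crypt mouth and favours differentiation, while antagonists made by cells below the crypt base keep it low around the stem cells. Hedgehog ligands of the epithelium act on the mesenchyme beneath it.

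Bambi was higher in KO than in WT colon in both conditions. In control mice its mean was 4.00 log2 RPM in WT and 6.14 in KO, which is about 161 and 689 reads per library. The difference of 2.15 on the log2 scale, or 4.42-fold, was listed, and Bambi ranked 9 of 5171 genes by this difference. In colitis its mean was 3.31 log2 RPM in WT and 5.12 in KO. This difference of 1.81, or 3.50-fold, was listed too, with rank 17. Bambi fell on colitis in KO, by 1.02 on the log2 scale. In WT its change was −0.68 and was not listed. The mean in KO colitis thus lay above both WT means. Whether the changes on colitis differed between the genotypes was not tested. Bambi (ENSMUSG00000024232) is protein coding, occupies bases 3507957 to 3516404 of chromosome 18 in GRCm38 (plus strand) and had no other listed gene within 100 kb. Of the epithelial markers, Car1 and Slc26a3 differed by −0.15 and −0.09 between KO and WT control, and by −0.81 and 0.59 in colitis.

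No other gene of the 32 was listed between the genotypes. The table of KO against WT control held 46 genes (0.89% of all distinct genes), and that of KO against WT colitis held 56 (1.08%), and Bambi was the single member of this group in each. Without Bambi, the median size of the difference was 0.130 in control and 0.245 in colitis, against 0.125 and 0.162 over all distinct genes. A difference of at least 1 on the log2 scale was reached in control by Bambi alone (1.82% of all distinct genes). In colitis it was reached by Bambi, Bmper and Inhba, 3 of 32 (4.39% of all distinct genes), of which Bmper at −1.18 and Inhba at −1.14 were lower in KO by their means but not listed.

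**Figure D1:**
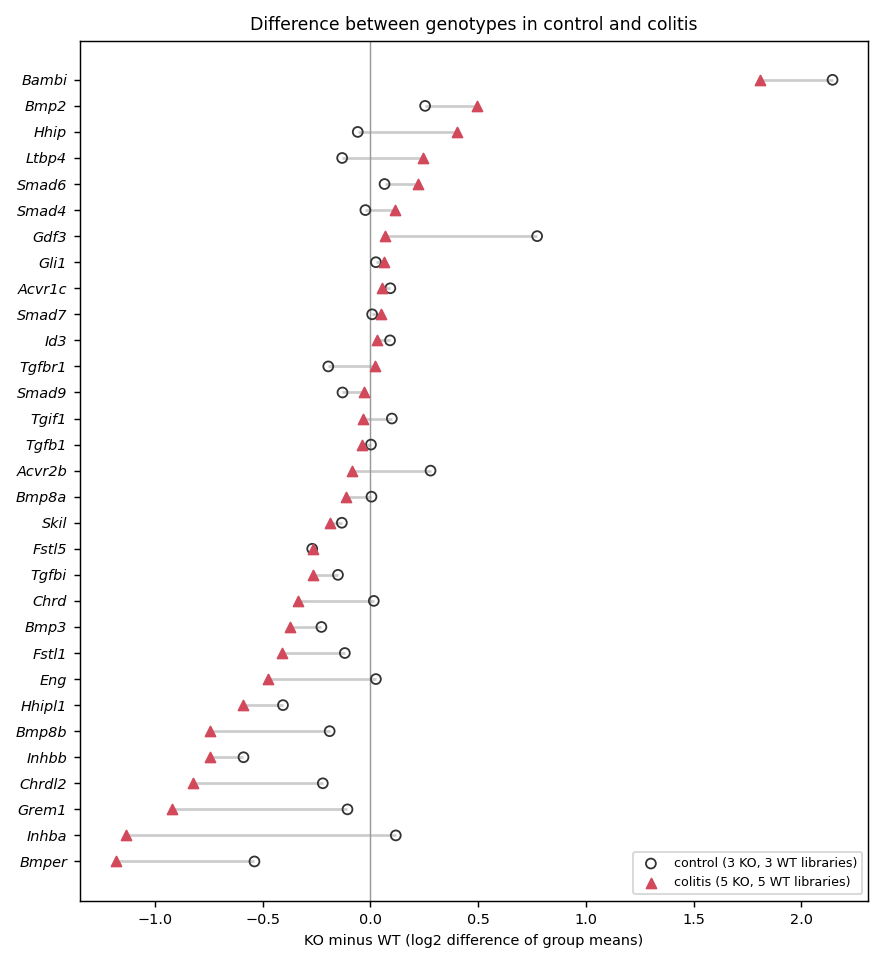
Difference between KO and WT for 31 of the 32 genes, in log2 units of the group means, in control (open circles, 3 KO and 3 WT libraries) and colitis (triangles, 5 KO and 5 WT libraries). No error bars are drawn because single libraries were not used; Bambi stands apart at 2.15 and 1.81, and in colitis Bmper, Inhba and Grem1 have the lowest values, at −1.18, −1.14 and −0.92.

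On colitis, 24 of the 32 genes were listed in WT, 13 as risen and 11 as fallen. Over all distinct genes the list of WT held 63.1%, with 36.6% risen and 26.4% fallen. In KO 25 were listed, 12 as risen and 13 as fallen, against 78.4% of all distinct genes, with 44.8% risen and 33.6% fallen. The lists of WT and KO shared 17 of these genes, which is 70.8% of those listed in WT and 68.0% of those listed in KO. Over all distinct genes, 66.9% of the list of WT and 53.8% of that of KO were shared. All 32 had the same sign of change in both genotypes, as did 5042 of the 5171 distinct genes. After centring on all distinct genes, 30 of the 32 had the same sign. The median over the group was −0.30 in WT and −0.36 in KO, where that of all distinct genes was 0.13 and 0.19. In WT, 5 secreted antagonists and all 3 activin and TGF-β ligands rose, whereas 2 of 4 BMP ligands, both inhibitory Smads and both hedgehog genes fell.

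**Figure D2:**
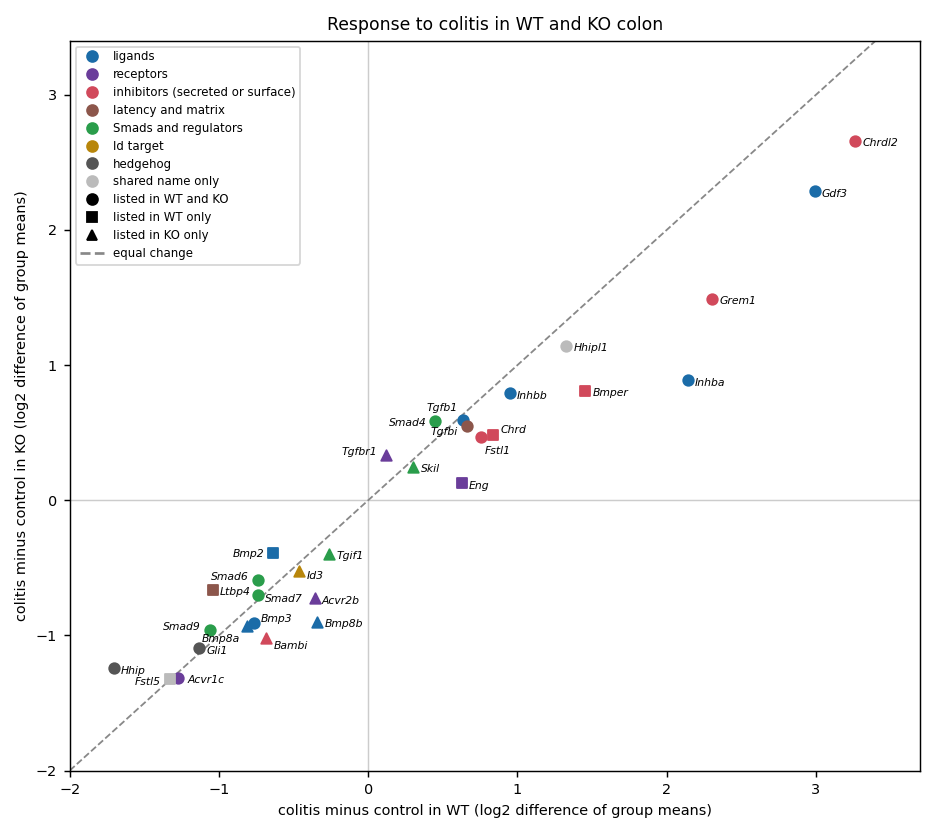
Change on colitis in KO against that in WT for 31 of the 32 genes, both as log2 differences of group means, coloured by role; the marker shape gives the table in which a gene is listed, and the dashed line marks equal change. Chrdl2, Grem1, Inhba and Bmper lie to the right and below the line, and Bambi, Bmp8b and Acvr2b below it among the falling genes; Gdf3 is drawn at its deposited means, with control means under 3 reads.

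Among the secreted antagonists, Chrdl2 and Grem1 had the largest changes. Chrdl2, a chordin-like BMP antagonist, had a mean of 1.57 log2 RPM in WT control and 4.83 in WT colitis, and of 1.34 and 4.00 in KO. It rose by 3.26 in WT, or 9.60-fold, and by 2.66 in KO, or 6.32-fold, both listed. Grem1, the gremlin made by mesenchymal cells below the crypts, had 7.24 log2 RPM in WT control and 9.54 in WT colitis, and 7.13 and 8.62 in KO. It rose 4.95-fold in WT and 2.81-fold in KO, and was the most abundant of the 32 genes per kb of exon in both colitis groups, at 7.49 and 6.57 log2 RPM per kb. Bmper, which binds BMPs in the matrix, had 1.84 log2 RPM in WT control and 3.29 in WT colitis, against 1.30 and 2.11 in KO. Its rise of 1.45 was listed in WT, and its change of 0.81 in KO was not. Chordin (Chrd) rose by 0.84 in WT, and its change of 0.48 in KO was not listed. Fstl1, a secreted follistatin-like glycoprotein, rose by 0.76 in WT and 0.47 in KO.

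All of these 5 secreted antagonists were thus listed as risen in WT and 3 in KO, and all 5 had a lower mean in KO colitis than in WT colitis, none of them listed, where 69.9% of all genes listed as risen in WT had a lower mean. Their summed level was 320 and 296 RPM in WT and KO control, and 1061 and 622 RPM in WT and KO colitis. Fibroblast markers rose on colitis as well. Of 8 such markers 6 were in the tables (Col1a1, Col1a2, Col3a1, Dcn, Lum and Thy1). All 6 rose in WT and 5 rose in KO, where 36.6% and 44.8% of all distinct genes rose. The median change of the markers was 0.97 in WT and 0.55 in KO. Over all genes listed as risen in WT it was 0.92 and 0.69. The summed level of the 6 markers was 2593 and 2515 RPM in control and 4995 and 3714 RPM in colitis. Their part in the result was not tested. A fraction of the exon bases of Chrd, 3.82%, is shared with Thpo, which rose by 1.50 in WT and 1.16 in KO, and since strand use in counting is not given in the sources used here, the value of Chrd is less certain.

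Promoter sequences of RefSeq (GRCm38.p6) were found for 22 of the 32 genes and searched, on both strands, for the BMP-Smad site GGCGCC in the 250 bases before the start. It was found in 6 of the 22 (Chrd, Grem1, Ltbp4, Smad9, Tgfbi and Tgfbr1), against 10.8% of 27025 genes with a promoter in the table, and the genes that have it included 4 that rose and 2 that fell. The palindromic Smad site GTCTAGAC was found in none of the 22 and in 0.20% of all these genes. The promoters of the strongly risen Grem1 and of Chrd are shown, with the match in capitals. That of Grem1 is chr2:113758649-113758898 on the minus strand, with the match 78 bases before the start, and that of Chrd is chr16:20732877-20733126 on the plus strand, inside the gene body of Thpo but in none of its exons, with the match 203 bases before the start.
Grem1: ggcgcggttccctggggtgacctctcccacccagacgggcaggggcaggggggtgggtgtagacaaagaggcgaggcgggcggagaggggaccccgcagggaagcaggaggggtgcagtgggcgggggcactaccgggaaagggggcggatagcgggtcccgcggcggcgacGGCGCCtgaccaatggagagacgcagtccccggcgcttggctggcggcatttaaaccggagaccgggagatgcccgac
Chrd: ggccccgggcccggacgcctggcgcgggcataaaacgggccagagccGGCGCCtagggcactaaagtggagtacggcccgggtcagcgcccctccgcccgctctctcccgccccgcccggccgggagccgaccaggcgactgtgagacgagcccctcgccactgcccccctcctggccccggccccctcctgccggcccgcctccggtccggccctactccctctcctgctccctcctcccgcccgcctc

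The ligands were divided by subfamily, with 8 in the tables. All 3 activin and TGF-β ligands rose in both genotypes. Inhba, the subunit of activin A, had a mean of 2.07 log2 RPM in WT control and 4.22 in WT colitis, and of 2.19 and 3.08 in KO. It rose 4.41-fold in WT and 1.85-fold in KO, and had the largest difference in response among the 32 genes, −1.25 on the log2 scale, which was not tested. Inhbb, the activin B subunit, rose by 0.95 in WT and 0.79 in KO. Tgfb1 had equal means of 5.02 log2 RPM in both control groups and rose by 0.63 in WT and 0.59 in KO, to 5.65 and 5.62. Gdf3, a ligand known from the early embryo, was under 3 reads per library in both control groups and had 0.32 log2 RPM in WT colitis and 0.39 in KO colitis. Against a floor of 3 reads per library this is at least 4.21-fold higher in WT and at least 4.26-fold higher in KO.

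The 4 BMP ligands had lower means on colitis in both genotypes, and 2 were listed in WT and 3 in KO. Bmp3, a divergent BMP that counteracts other BMPs, fell by 0.77 in WT and 0.91 in KO. Bmp2, made by differentiated cells near the crypt mouth, was the most abundant ligand per kb of exon, with 5.03 log2 RPM per kb in WT control. It fell by 0.64 in WT, and its change of −0.39 in KO was not listed. Bmp8a and Bmp8b changed by −0.81 and −0.34 in WT, neither listed, and fell by 0.93 and 0.90 in KO. These neighbours on chromosome 4 are close relatives in sequence, between which uniquely mapped reads may be lost or split, and Bmp8b shares 8.74% of its exon bases with the annotated transcript Gm17244. The summed level of the 4 BMP ligands was 269 and 272 RPM in WT and KO control, and 169 and 176 RPM in colitis. Of the epithelial markers, Slc26a3 fell in both genotypes, by 1.31 in WT and 0.63 in KO. Car1 changed by −0.83 in WT, which was not listed, and fell by 1.49 in KO. The other 11 epithelial markers of the list were not in the tables. Their part in the fall of the BMP ligands was not tested.

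**Figure D3:**
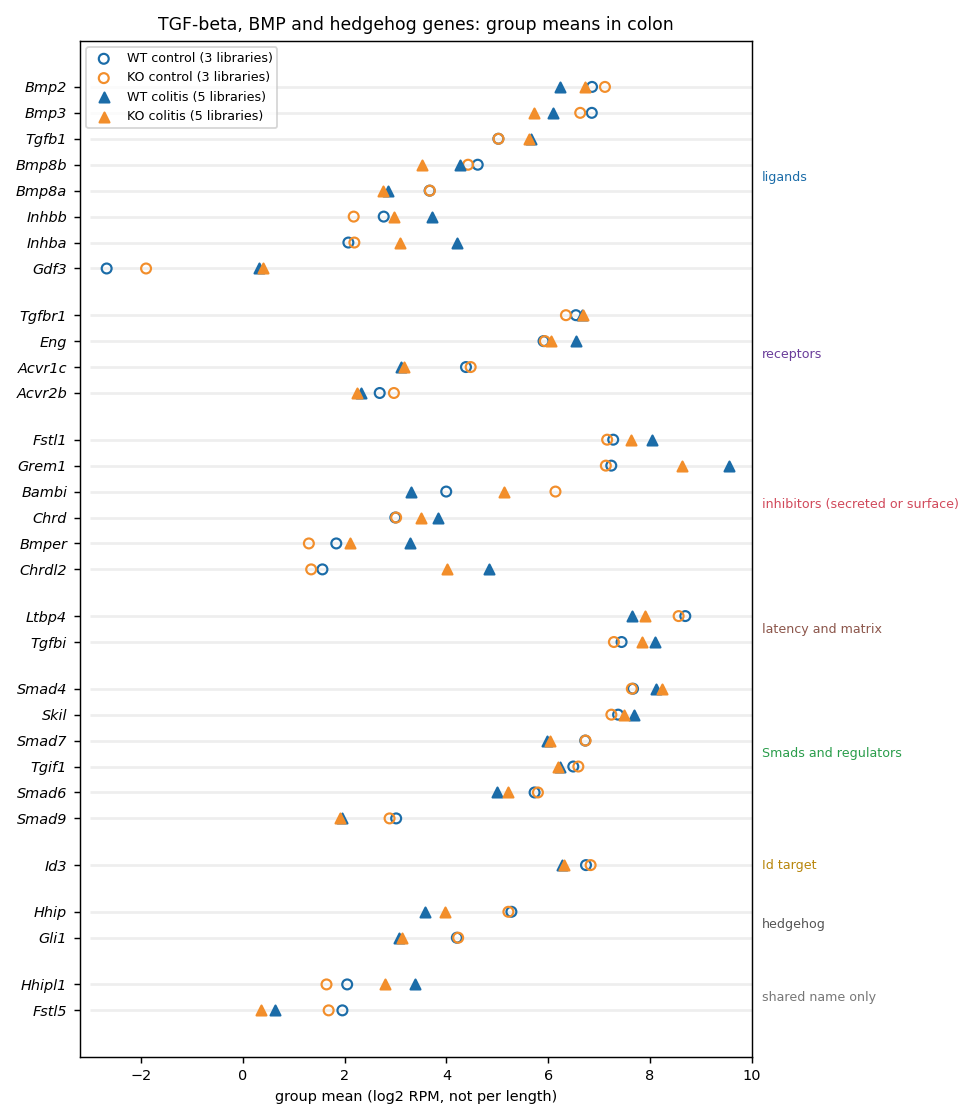
Group means of 31 of the 32 genes in log2 RPM, ordered by role and, within a role, by level in WT control; open circles are control and filled triangles colitis, blue for WT and orange for KO. Levels are not corrected for gene length and no error bars are drawn; the triangles lie to the right of the circles for Inhba, Grem1, Chrdl2 and Bmper and to the left for Bmp2, Bmp3, Acvr1c, Hhip and Gli1, while for Bambi the orange symbols lie to the right of the blue.

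Receptors had mixed changes, and 4 were in the tables. Acvr1c, the type I receptor ALK7 of activin B and nodal, had 4.38 log2 RPM in WT control and 3.11 in WT colitis, and 4.48 and 3.16 in KO. Its fall was 1.27 in WT and 1.31 in KO, which made it the single receptor listed in both genotypes. Acvr2b, a type II activin receptor, fell by 0.73 in KO, and its change of −0.36 in WT was not listed. Tgfbr1, the type I receptor of TGF-β, rose by 0.34 in KO, where its change of 0.12 in WT was not listed. Eng, the endothelial co-receptor endoglin, rose by 0.63 in WT, and its change in KO was 0.13 and not listed. Its value is set beside Tek, the single endothelial marker of 7 in the tables, which changed by −0.19 in WT (not listed) and fell by 0.46 in KO.

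Both inhibitory Smads fell in both genotypes, as did Smad9. Smad6, which mainly inhibits BMP receptors, had 5.73 log2 RPM in WT control and 4.99 in WT colitis, and 5.80 and 5.21 in KO, a fall of 0.74 and of 0.59. Smad7, which inhibits TGF-β and BMP receptors, fell by 0.74 in WT and 0.70 in KO. Smad9, the receptor-regulated Smad8 of the BMP branch, had 3.01 log2 RPM in WT control and 1.95 in WT colitis, and 2.88 and 1.92 in KO, a fall of 1.06 and of 0.96. Smad4, the common partner, went in the opposite direction. Its means were 7.66 and 8.11 log2 RPM in WT and 7.64 and 8.23 in KO, a rise of 0.45 and of 0.59. The 4 Smad genes were all listed in both genotypes, and between the genotypes their means differed by at most 0.22 in size in colitis. The corepressor Skil rose by 0.25 and the corepressor Tgif1 fell by 0.39 in KO, and in WT their changes of 0.30 and −0.26 were not listed. Id3, a target of BMP signalling that encodes an inhibitor of basic helix-loop-helix factors, fell by 0.53 in KO, and its change of −0.46 in WT was not listed. The promoters of Smad6 and Smad9 are shown because both genes fell. That of Smad6, chr9:64022060-64022309 on the minus strand, holds no GGCGCC, and that of Smad9, chr3:54755332-54755581 on the plus strand, holds it 51 bases before the start, in capitals.
Smad6: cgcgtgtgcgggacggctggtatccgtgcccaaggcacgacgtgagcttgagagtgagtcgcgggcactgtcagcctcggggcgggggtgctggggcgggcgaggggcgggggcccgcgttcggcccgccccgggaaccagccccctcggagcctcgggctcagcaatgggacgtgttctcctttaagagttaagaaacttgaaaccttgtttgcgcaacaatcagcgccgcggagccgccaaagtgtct
Smad9: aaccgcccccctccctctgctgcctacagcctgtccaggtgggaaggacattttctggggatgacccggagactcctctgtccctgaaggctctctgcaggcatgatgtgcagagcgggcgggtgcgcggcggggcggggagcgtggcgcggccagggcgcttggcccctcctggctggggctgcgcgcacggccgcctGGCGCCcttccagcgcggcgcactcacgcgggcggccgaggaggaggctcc

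The genes of latency and matrix were Ltbp4 and Tgfbi. Ltbp4, which stores latent TGF-β in elastic fibres, was the most abundant of the 32 genes per kb of exon in WT control, at 6.00 log2 RPM per kb. In log2 RPM it had 8.69 in WT control and 7.65 in WT colitis, a listed fall of 1.04, and 8.56 and 7.89 in KO, a change of −0.66, which was not listed. Tgfbi, a matrix protein induced by TGF-β, rose by 0.66 in WT and 0.55 in KO. Per kb of exon, the levels in WT control fell from Ltbp4 through Id3, Smad4, Tgfbi and Grem1, at 5.90 to 5.18 log2 RPM per kb for the latter 4, down to Gdf3. Bambi was at rank 21 with 1.65. Whether neighbours in this order differ beyond the spread between mice was not tested.

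The hedgehog genes fell in both genotypes. Hhip, a surface protein that binds and sequesters hedgehog ligands and is itself a target of the pathway, had 5.28 log2 RPM in WT control and 3.57 in WT colitis, and 5.22 and 3.97 in KO. It fell by 1.71 in WT and 1.24 in KO. Gli1, the transcription factor and target that reports pathway activity, had 4.21 and 3.07 in WT and 4.23 and 3.14 in KO, and fell by 1.13 and 1.09. Among 11 other hedgehog genes, 3 were in the tables. The ligand Shh fell by 1.85 in WT and 1.51 in KO, from means of 1.89 and 1.74 log2 RPM in control to 0.04 and 0.22 in colitis. Its mean in WT colitis was under 10 reads per library, which corresponded to 0.32 log2 RPM in that group. The co-receptor Boc fell by 0.90 and 0.81. The co-receptor Gas1 changed by −0.62 in WT, which was not listed, and fell by 0.81 in KO. Smooth muscle markers had lower means as well, and 2 of 7 were in the tables. Myh11 fell by 0.66 and 0.59, and Acta2 fell by 0.59 in WT, where its change of −0.47 in KO was not listed. Their summed level was 3619 and 3358 RPM in control and 2345 and 2316 RPM in colitis, and their part in the result was not tested. Gli1 shares 1.24% of its exon bases with Arhgap9, which rose by 1.61 and 1.59. The promoter of Hhip, the hedgehog gene with the larger fall, is chr8:80058009-80058258 on the minus strand. The GLI site GACCACCCA was found in none of the 22, which did not include Gli1, and in 0.255% of all genes with a promoter.
Hhip: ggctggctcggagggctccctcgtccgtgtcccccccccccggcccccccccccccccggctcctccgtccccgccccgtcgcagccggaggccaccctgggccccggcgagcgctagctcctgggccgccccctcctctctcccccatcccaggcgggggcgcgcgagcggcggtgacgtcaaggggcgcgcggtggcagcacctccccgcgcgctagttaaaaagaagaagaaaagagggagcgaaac

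Fstl5 and Hhipl1 share the start of a name with the family but are not known as components of these pathways. Fstl5 had 1.96 log2 RPM in WT control and 0.63 in WT colitis, and 1.69 and 0.36 in KO. It fell by 1.33 in WT, and the change of −1.32 in KO was not listed. Hhipl1 had 2.05 and 3.38 in WT and 1.65 and 2.79 in KO, and rose by 1.33 and 1.14.

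The change on colitis was smaller in KO than in WT for most genes of the group. It was smaller in size for 22 of 32, where 50.6% of all distinct genes were smaller. After centring on all distinct genes it was smaller for 19 of 32, and the share of all distinct genes was not computed for that setting. Of the 13 genes listed as risen in WT, 12 changed less in KO (92.3%), where 73.5% of all genes on that list did. Smad4 was the exception. Of the 11 listed as fallen in WT, 9 changed less in KO (81.8%), where 75.2% of all genes on that list did, and Bmp3 and Acvr1c were the exceptions. Genes taken from the list of WT had a large change in WT by that choice, and the shares of all genes carry the same choice. The median over the 32 genes of the response in KO minus that in WT was −0.12, against −0.02 over all distinct genes. No test of these shares was made.

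Other genes of the TGF-β and BMP pathway were taken from a list of 55, of which 20 were in the tables. In WT 12 rose and 5 fell, where 63.1% of all distinct genes were listed, and in KO 10 rose and 4 fell, where 78.4% were listed. The median of the list was 0.47 (WT) and 0.27 (KO). Runx3, a transcription factor that acts with Smads, rose by 1.29 in WT and 1.41 in KO, and Nrros, which anchors latent TGF-β on myeloid cells, rose by 1.27 and 1.00. Pmepa1, a feedback inhibitor induced by TGF-β, was the one gene of the list listed between the genotypes. Its mean was 6.48 log2 RPM in WT control, 6.18 in KO control, 7.46 in WT colitis and 6.92 in KO colitis, so that it rose in both genotypes and was lower in KO colitis by 0.54 on the log2 scale. Lrrc32 and Itgb6, which present and activate latent TGF-β, rose by 0.81 and 0.76 in WT, and their change of 0.28 in KO was not listed for either.

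Textbook target genes of the pathway, 15 of 28 in the tables, rose in 10 cases and fell in 4 in WT, where 36.6% of all distinct genes rose and 26.4% fell. In KO 8 rose and 1 fell, where 44.8% of all distinct genes rose and 33.6% fell. For WT the median was 0.75 and for KO 0.49, and 12 of 15 had a lower mean in KO colitis than in WT colitis, none of them listed, where 52.6% of all distinct genes and 69.9% of those listed as risen in WT had a lower mean. Timp1, an inhibitor of matrix proteases, rose by 3.89 in WT and 2.67 in KO. The collagen Col1a1 rose by 1.23 and 0.56. The cell cycle inhibitors Cdkn1a and Cdkn2b fell by 0.80 and 0.62 in WT, and their changes of −0.46 and −0.39 in KO were not listed. Of these targets, 3 collagens stand among the fibroblast markers above and Acta2 among the smooth muscle markers, and Runx2 is in both lists of TGF-β genes.

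**Figure D4:**
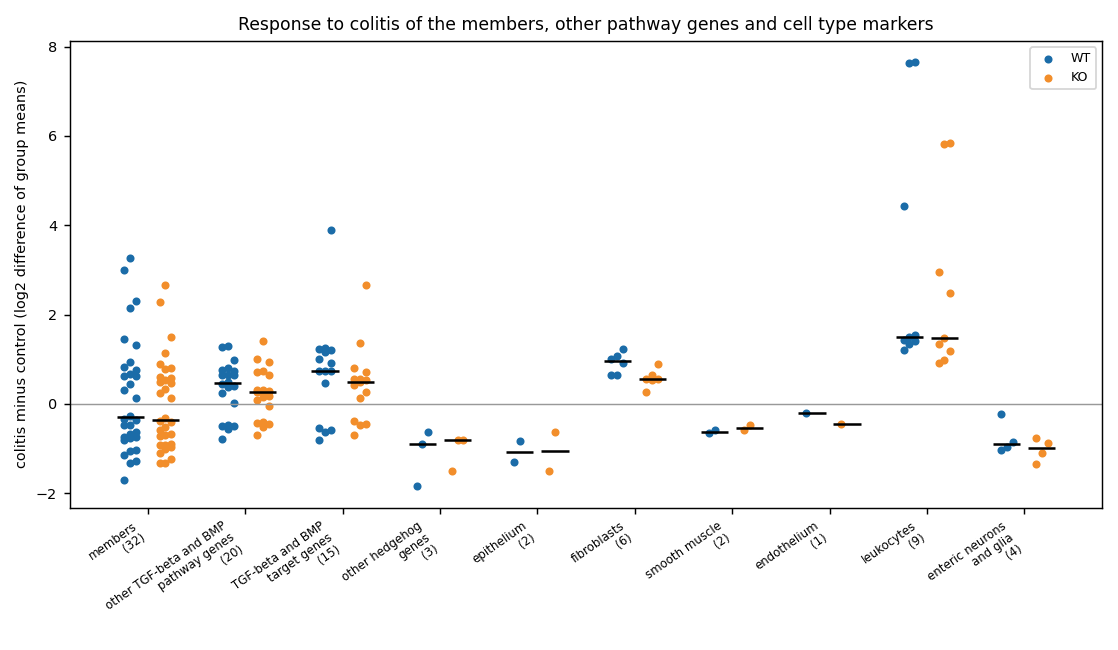
Change on colitis, as log2 differences of group means, of the 32 genes, of the 3 other gene lists and of cell type markers, in WT (blue) and KO (orange); each point is a gene, bars are medians, and the number in brackets counts the genes in the tables. Fibroblast and leukocyte markers lie above 0 in both genotypes, with medians of 0.97 and 1.50 in WT, and smooth muscle and enteric neuron and glia markers lie below it.

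Other cell types in the tissue moved on colitis too. Of 10 leukocyte markers 9 were in the tables and all 9 rose in both genotypes, with medians of 1.50 (WT) and 1.48 (KO) and a summed level of 521 and 551 RPM in control and 1534 and 1381 RPM in colitis. Over all distinct genes, 36.6% rose in WT and 44.8% in KO. The change was smaller in KO for 7 of these 9 markers (77.8%) and for 73.5% of all genes listed as risen in WT. In colitis the neutrophil markers S100a8, S100a9 and Csf3r were lower in KO than in WT by their means, by −2.66, −2.77 and −0.90, none of them listed, while the other 6 differed by at most 0.39 in size. S100a8 was under 3 reads per library in both control groups, and S100a9 in KO control. Of 7 markers of enteric neurons and glia 4 were in the tables, of which 3 fell in WT and 4 in KO, with a median of −0.90 and −0.99. Over all distinct genes, 26.4% fell in WT and 33.6% in KO. All 4 neuron and glia markers had a lower mean in KO colitis than in WT colitis, where 52.6% of all distinct genes did. The difference of −0.66 for Ret was listed. The part of these cell types in the changes of the TGF-β family genes was not tested.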

How the data were processed

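The tissue was taken as colon from the sample labels and the methods of the study, although the design text of the series speaks of small intestine. Total RNA from whole colon, from which DSS had been depleted by lithium chloride precipitation, was sequenced on the BGISEQ-500. The labels describe single-end and the methods of the study paired-end reads of the same length. The authors mapped reads to GRCm38 with HISAT2 2.1.0, kept uniquely mapped reads, removed reads over ribosomal RNA because 3 libraries, which are not named, were contaminated, and counted reads over exons in SeqMonk 1.42.0. Strand use in counting is not given in the sources used here. The 4 deposited tables hold, for genes with an adjusted p-value under 0.05 in the authors' DESeq2 test of 1 comparison, the log2 RPM of each group as the authors' mean over its libraries. They are not corrected for gene length. The tables also hold the adjusted p-values of those comparisons, which were not used here.

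Genes were matched by symbol to GENCODE M21, where 31 of 32 had the same coordinates. Changes were computed as differences of the deposited log2 means, folds as their antilogarithm, and levels per kb from the union of exons. Depth was recovered from the lowest means, which lie on the steps that whole reads give, with a count of 0 set to 0.9 read; the step search was tested on simulated data. A mean at or under 3 reads was taken as the floor, which covers counting error only. No test was run. Replicates are separate libraries by their titles, but the deposited tables give group means, so the planned fits on single libraries were not run. A supplementary table of the study holds normalised counts of single colon libraries, which were not used here. The genes and lists were chosen with earlier results of these data known, and genes found by the name rule could be named, with all 4 means for those listed between genotypes, with an absolute change of at least 1, with a close relative that moved in the opposite direction, or with the largest change of their role. Some genes are counted but not reported here by name. Python 3.11.15, pandas 2.3.3 and numpy 2.4.6 were used.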

Additional observations from a re-analysis of the deposited data

How the results depend on the processing

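Over 16 results and 55 alternative settings, 49 stayed within 0.2 on the log2 scale or 1.5-fold of a count. When an absolute log2 change of at least 1 was required beside the listing, 12 genes remained in WT and 8 in KO. With the mean in place of the median, the change of the 32 genes on colitis was 0.16 in WT, where the sign reversed, and −0.018 in KO, and without the hedgehog genes and those that share only a name the median was −0.069 and −0.099. The direction of the group as a whole thus depends on the summary, while centring on all distinct genes turned the sign of no listed change. The values of Bambi moved by less than 0.2 under each alternative run for it. No paired analysis was possible because the deposited tables, from which all values were taken, give group means only. Leaving out each replicate, the replicate block and DESeq2 on counts were therefore not run, and the single-library counts in a supplementary table of the study were not used. Depth limits Gdf3, which had under 3 reads per library in control.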

Other observations

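Of the 32 genes, 18 had another listed gene within 100 kb, in 31 pairs, and 7 shared exon bases with another annotated gene, at most 8.74% of their exons.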
